A study of Mus musculus with 5 samples.

Results

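The prokineticins Prok1 and Prok2 and their receptors Prokr1 and Prokr2 form a small ligand and receptor family, and their transcripts were followed here in pyramidal cell tissue of the hippocampus from mouse pups on postnatal day 3 (P3) after maternal cocaine treatment. Every array feature that the platform annotation pairs with one of these 4 gene symbols was taken, which gave 6 of 44290 features and 4 of 19087 symbols. Prok1 and Prok2 had 2 probes each, and Prokr1 and Prokr2 had 1 probe each. RefSeq lists Prok1 also as an older synonym of Prok2, and the probes were told apart by their gene identifiers. Prokr1 is the gene called GPR73 in the study, which sequenced its promoter after bisulfite treatment to measure DNA methylation. In P3 pups the study reported significantly higher methylation there after maternal cocaine, by this method and by a CpG island array. By real-time RT-PCR in P3 pups the study also reported a significant decrease of Prokr1 mRNA after maternal cocaine.

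Prokineticins are small secreted proteins with a conserved N-terminal sequence and a cysteine-rich fold. They bind G protein-coupled receptors that act mainly through Gq, phospholipase C and calcium release. Prok1 is also known as endocrine gland-derived vascular endothelial growth factor, after its action on the vessels of steroid-producing glands, and Prok2 is an output signal of the suprachiasmatic clock and a guidance cue for cells that migrate to the olfactory bulb. In mouse and human, loss of Prok2 or Prokr2 impairs olfactory bulb development and the migration of gonadotropin-releasing hormone (GnRH) neurons.

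Each of 5 arrays with 2 dye channels set RNA from a cocaine-treated litter (channel 1) against RNA from a saline-control litter (channel 2). Dams of the outbred CD1 stock received 20 mg/kg cocaine under the skin 2 times a day from gestational day 8 to 19, or saline on the same schedule with food matched to a cocaine-treated dam, and all litters were given to foster dams at birth. The pyramidal layer was cut out by laser from the right hemisphere of male pups, and the labels call these arrays preliminary to the study. Each deposited value is a log2 ratio, most likely cocaine over saline, judged from the order of the channels, since the direction itself is not stated. If it ran the other way, every sign and every higher or lower given here would be exchanged. The labels do not say that the arrays came from separate litters, and the spread on which the p-values rest may therefore be technical. The dyes were never swapped, so an effect of cocaine and an effect of the dye cannot be told apart. A ratio also gives no level of expression, so the labelled tissue could not be checked for its markers. In tissue RNA, fewer cells that express a gene and less RNA per cell cannot be told apart.

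The arrays stood apart from one another in level. The median deposited ratio lay between -2.68 and -2.52 on arrays 1 and 2 and between -0.78 and 0.26 on arrays 3 to 5. On arrays 3 to 5, values equal at 3 decimals to the log2 of a ratio of whole numbers no larger than 30 made up from 85.8 to 86.7% of the measured values, against 34.0 and 38.2% on arrays 1 and 2. Exact zeros and the ceiling of 16.61 (a ratio of 100000) were set to missing. They made up 47.7 and 7.70% of the features on array 5, the highest shares among the 5 arrays. Ratios were then expressed relative to the median of each array, here called centred ratios. Of 28035 genes and unnamed features measured on at least 3 arrays, 1976 (7.05%) passed an adjusted p of 0.05 in limma, 1651 higher (5.89%) and 325 lower (1.16%) with cocaine, or 1651 lower and 325 higher if the ratios ran the other way. That split rests on the reference level, since without centring 63 were higher and 8111 lower. Without array 1 the count of calls was 64, and without array 2 it was 76.

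None of the 4 prokineticin genes passed this test in either direction. All 4 mean centred ratios were below 0, with Prok2 the lowest at -1.27, followed by Prokr1 at -1.05, Prokr2 at -0.86 and Prok1 at -0.77. Over all genes tested the median mean was -0.14, and 55.8% of the means were below 0. This share was 74.2, 60.4 and 42.6% for genes measured on 3, 4 and 5 arrays. Of the 30 probe values of the family, 22 were measured, 6 were exactly 0 and 2 were at the ceiling. As deposited, 22 of 22 measured values were below 0, and 20 of 22 were below the median of their array. The 2 values at the ceiling, set to missing, lie above 0 and are not among these 22. The percentile of a member probe among the measured features of its array, which does not depend on centring, ran from 4.77 to 59.0. A sign below 0 was common before centring, since 96.4, 91.2, 58.0, 69.8 and 48.0% of all measured values on arrays 1 to 5 had it.

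**Figure D1:**
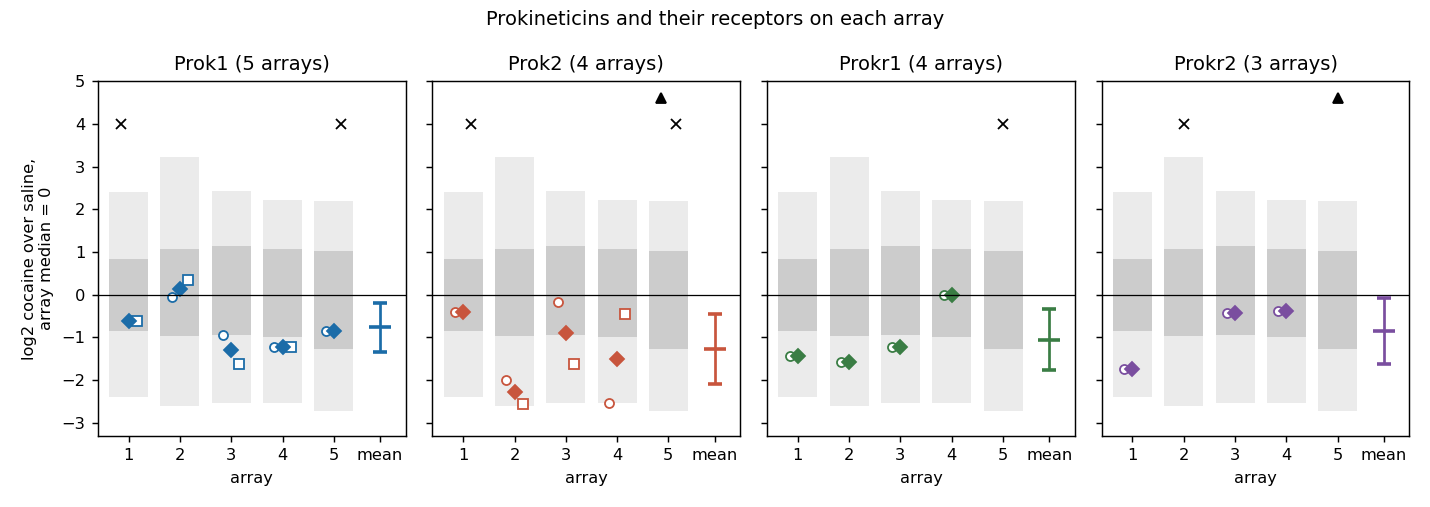
Centred log2 ratios (cocaine over saline, array median at 0) of the 4 genes on each of the 5 arrays. Open circles and squares are first and second probes, diamonds the gene value, bars at right the mean and SD over arrays, crosses values of exactly 0 and triangles values at the ceiling (both placed at a fixed height, not to scale); dark and light grey boxes span the 25th to 75th and the 5th to 95th percentile of all measured features. Gene values lay at or below the array median except Prok1 on array 2 (0.14), and array 5 gave a measured value for Prok1 only.

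Among the ligands, Prok1 was the only gene of the family measured on all 5 arrays. Its centred ratios were -0.61, 0.14, -1.29, -1.22 and -0.85 on arrays 1 to 5. Only array 2 thus had a Prok1 gene value above the array median, with the 2 probes at -0.061 and 0.34. The mean was -0.77 ± 0.58 (SD, n = 5), with a standard error of 0.43 and a 95% interval from -1.69 to 0.16. The limma test gave an adjusted p of 0.30, and an exact two-sided sign-flip permutation test of the 5 values gave p = 0.125, where the smallest p the design allows is 0.0625. Of all genes tested, 23.4% had a lower mean than Prok1, and of the 11731 genes measured on all 5 arrays, 13.3% did.

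The 2 Prok1 probes gave close values where both were measured. As deposited, the first probe read -2.59, -1.32, -2 and -0.58 on arrays 2 to 5, and the second read -3.29, -2.19, -2 and -2 on arrays 1 to 4. The first probe was listed at 0 on array 1 and the second at 0 on array 5, so the gene value on these arrays rests on 1 probe. First minus second probe was -0.40, 0.68 and 0.00 on arrays 2 to 4. The median absolute difference between the first 2 probes of a gene was 1.28 over 8169 genes. On arrays 2 to 4 the Prok1 probes thus differed by less than that median. The difference of 0.00 is a tie at the ratio 1 to 4, a value held by 827 features of array 4. Tested singly, they had means of -0.77 and -0.78 on 4 arrays each (adjusted p of 0.41 and 0.42 in limma).

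Prok2 had the lowest mean of the family. Its centred ratios were -0.41, -2.28, -0.89 and -1.49 on arrays 1 to 4, all below the array median. Of the genes measured on 4 arrays, 16.4% were at or below the median on every array. The mean was -1.27 ± 0.81 (SD, n = 4), with a standard error of 0.51 and a 95% interval from -2.37 to -0.17. This gave an unadjusted p of 0.027 in limma and an adjusted p of 0.15 over all features tested. The exact sign-flip permutation test gave p = 0.125, the smallest it can give with 4 arrays. Of all genes tested, 8.80% had a lower mean, and of the 10537 genes measured on 4 arrays, 9.39% did.

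On array 5 one Prok2 probe was at the ceiling and the other at 0, so this array gave no ratio for Prok2. Where the ceiling value was kept at the highest ratio measured on that array, a centred 6.62, the Prok2 mean became 0.31 (adjusted p = 0.91 in limma), and with zeros and ceiling both kept as deposited it was 0.67 (adjusted p = 0.86). The sign of the Prok2 mean thus rests on the treatment of a single value. The ceiling value was deposited for 7.70% of the features on array 5 and for 0.08 to 1.25% on the other arrays.

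The Prok2 probes differed from each other by more than those of Prok1. As deposited, the first probe read -3.09, -4.52, -0.53 and -3.32 on arrays 1 to 4, and the second read -5.09, -2 and -1.22 on arrays 2 to 4. First minus second probe was 0.56, 1.47 and -2.10 on arrays 2 to 4. The first probe was the higher on arrays 2 and 3 and the lower on array 4, where its value was at the 4.77th percentile of the array. Tested singly, the probes had means of -1.28 (n = 4, adjusted p = 0.19 in limma) and -1.55 (n = 3, adjusted p = 0.17).

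Prok2 is a clock-controlled gene, and its promoter is known for E-boxes, the CACGTG motif bound by CLOCK and BMAL1. The 250 bases before its start (GRCm38.p6, minus strand, chr6:99726393-99726642, credited to RefSeq, whose promoter table matched all 4 genes) are shown for this motif, with capitals marking the 1 copy of CACGTG, which reads the same on both strands and begins 135 bases before the start. A match to these letters is a description only. Of 32851 promoters cut to the same length, 6.02% held the motif. The stretch held 34 CpG, more than 96.5% of these promoters, whose median was 6.
Prok2: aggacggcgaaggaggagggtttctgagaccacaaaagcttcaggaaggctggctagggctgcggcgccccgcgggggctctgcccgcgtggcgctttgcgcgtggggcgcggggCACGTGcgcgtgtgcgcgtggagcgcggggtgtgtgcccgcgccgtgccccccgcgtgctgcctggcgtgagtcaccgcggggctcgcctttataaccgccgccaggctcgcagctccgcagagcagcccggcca

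Among the receptors, Prokr1 was measured on 4 arrays. Its single probe had centred ratios of -1.44, -1.56, -1.21 and 0.00 on arrays 1 to 4. The first 3 of these lay close together, and on array 4 the probe was itself the median. Its mean was -1.05 ± 0.72 (SD, n = 4), with a standard error of 0.50 and a 95% interval from -2.14 to 0.033. The adjusted p in limma was 0.22, and the exact sign-flip permutation test gave p = 0.25, the smallest these values allow, since 1 of the 4 is 0 and has no sign. Of all genes tested, 13.8% had a lower mean, and 15% of those measured on 4 arrays did. Array 5 listed Prokr1 at 0. Without array 4 the mean was -1.40 (adjusted p = 0.18).

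Before centring, Prokr1 read -4.12, -4.09, -1.58 and -0.78 on arrays 1 to 4. The array medians also lay lower on arrays 1 and 2 than on arrays 3 and 4. The percentiles of Prokr1, which do not depend on centring, were 13.7, 14.2, 19.9 and 50.2. They were thus close on arrays 1 to 3 and higher on array 4. On arrays 2 to 4 the deposited values of Prokr1 equalled, at 3 decimals, the log2 of the ratios 1 to 17, 1 to 3 and 7 to 12. The same values recurred at 175, 937 and 137 features of their arrays.

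Prokr2, the receptor whose loss impairs olfactory bulb development, was measured on 3 arrays. Its centred ratios were -1.75, -0.43 and -0.39 on arrays 1, 3 and 4, so array 1 stood well below the other two. The mean was -0.86 ± 0.77 (SD, n = 3), with a standard error of 0.60 and a 95% interval from -2.16 to 0.44. The adjusted p in limma was 0.41, and the exact sign-flip permutation test gave p = 0.25, the smallest it can give. Of all genes tested, 20.0% had a lower mean, but among the 5767 genes measured on exactly 3 arrays 35.5% did. Genes measured on fewer arrays had lower means in general, with medians of -0.56 for 3 arrays, -0.23 for 4 and 0.17 for 5. Of the genes measured on 3 arrays, 33.1% were at or below the array median on each of them.

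Prokr2 was listed at 0 on array 2 and stood at the ceiling on array 5, as the first Prok2 probe did. With zeros kept as ratios of 1 its mean was -0.36 (adjusted p = 0.84 in limma). With the ceiling value kept at the highest measured ratio its mean was 1.01 (adjusted p = 0.71 in limma), and with zeros and ceiling kept as deposited it was 3.03 (adjusted p = 0.65). The direction for Prokr2 is therefore not settled by these values.

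The receptor promoters are shown because the study measured methylation of CpG sites at Prokr1. In both sequences, which are the 250 bases before the start on the minus strand of GRCm38.p6, capitals mark the CpG sites. Prokr1 (chr6:87590744-87590993) and Prokr2 (chr2:132385448-132385697) each held 10 CpG, more than 62.2% of all promoters of that length. Prokr1 held 4 copies of GGGCGG, a core of the binding site of Sp1, and Prokr2 held 2, both strands and overlapping copies counted. This motif occurred in 32.7% of all promoters of that length. Prok1 had 2 starts in the same table, with 6 and 1 CpG, and neither held GGGCGG or CACGTG. The Prokr1 stretch was not placed against the longer region that the study sequenced, so its marked CpG need not be the sites measured there. No methylation value was analysed here.
Prokr1: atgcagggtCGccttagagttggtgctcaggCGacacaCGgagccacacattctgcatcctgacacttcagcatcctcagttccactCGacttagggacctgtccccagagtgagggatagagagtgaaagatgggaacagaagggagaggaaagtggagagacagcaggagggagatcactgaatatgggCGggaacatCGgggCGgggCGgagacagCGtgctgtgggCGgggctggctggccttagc
Prokr2: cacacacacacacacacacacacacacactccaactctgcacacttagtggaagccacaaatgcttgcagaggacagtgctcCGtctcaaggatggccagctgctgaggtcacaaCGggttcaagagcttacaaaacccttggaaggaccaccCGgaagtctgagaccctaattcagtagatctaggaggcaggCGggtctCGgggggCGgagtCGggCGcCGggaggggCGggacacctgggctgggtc

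Differences between family members were taken within each array, where the reference level drops out. Of 6 pairs, none differed beyond the spread between arrays. Prok1 minus Prok2 averaged 0.52 ± 1.29 (SD, n = 4) and ran from -0.40 to 2.42, with Prok1 the higher on 2 of 4 arrays. Prok1 minus Prokr1 averaged 0.31 ± 1.25 (n = 4), and Prok2 minus Prokr1 averaged -0.22 ± 1.11 (n = 4). Prokr1 minus Prokr2 averaged -0.025 ± 0.65 (n = 3), the smallest mean difference and the narrowest spread of the 6. Prok1 minus Prokr2 and Prok2 minus Prokr2 averaged -0.18 ± 1.14 and -0.074 ± 1.27 (n = 3 each). Exact two-sided sign-flip permutation tests gave p from 0.75 to 1, each 1 after Benjamini-Hochberg adjustment over the 6 pairs. With 4 and 3 arrays the smallest possible p is 0.125 and 0.25, so no pair could have passed 0.05, and a p that misses the threshold does not show that the genes moved alike. The order of the 4 means is thus not separated from the spread at any step.

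The position of the family depended on what was set at 0. Actb and Gapdh served as internal standards in other assays of the study. Here Actb averaged 2.66 ± 1.21 (SD, n = 5, adjusted p = 0.013 in limma) above the array median with cocaine, while Gapdh averaged -1.08 ± 1.54 (n = 4, adjusted p = 0.29). With values left as deposited, Prok1, Prok2 and Prokr1 averaged -1.98, -2.86 and -2.64 and passed the test (adjusted p of 0.035, 0.011 and 0.016), and Prokr2 averaged -2.13 (adjusted p = 0.073). The median of all genes was then -1.52, and 8174 of 28035 passed. With the ribosomal protein genes at 0 the 4 means were from -3.26 to -2.35 and with Actb at 0 from -4.13 to -3.20, and all 4 genes passed in both, as did 19085 and 24340 of all features. With Gapdh at 0 the signs turned, to 0.42 for Prok1, 0.49 for Prok2 and 0.28 for Prokr1, and the median of all genes was 1.23. None of these passed (adjusted p of 0.80, 0.80 and 0.89 in limma). Gapdh has no value on array 4, so these means rest on 4, 3 and 3 arrays. Relative to the median of all genes in the same fit, the family lay between -1.34 and -0.25 under each of these references, Prokr2 not being testable with Gapdh.

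**Figure D2:**
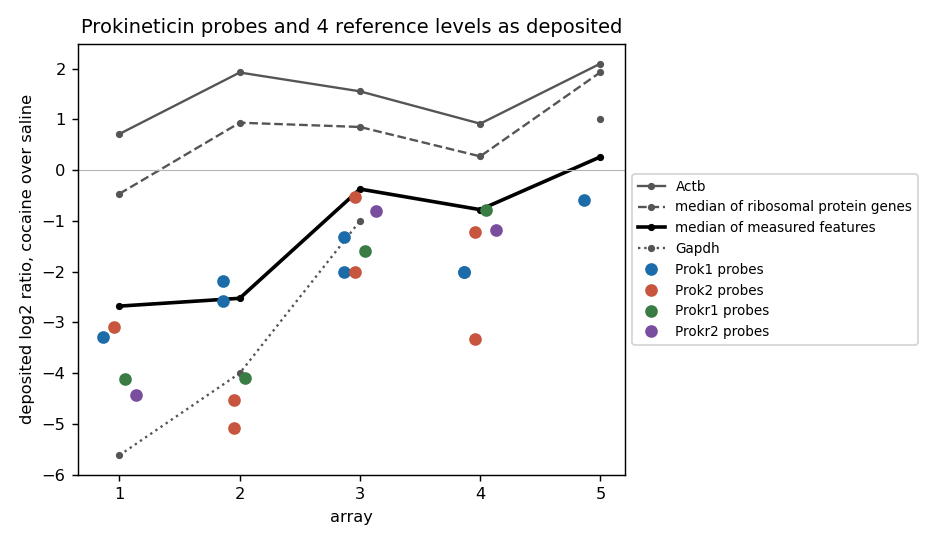
Deposited log2 ratios (cocaine over saline) of the 6 probes on each of the 5 arrays, with 4 lines for Actb, the median of ribosomal protein genes, the median of all measured features and Gapdh; values of exactly 0 and at the ceiling are left out, Gapdh has no value on array 4, and the 2 Prok1 probes coincide there. Every coloured point lies below the Actb and ribosomal lines, and on array 2 the Prok2 and Prokr1 points, from -5.09 to -4.09, lie below the Gapdh line at -4.

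**Figure D3:**
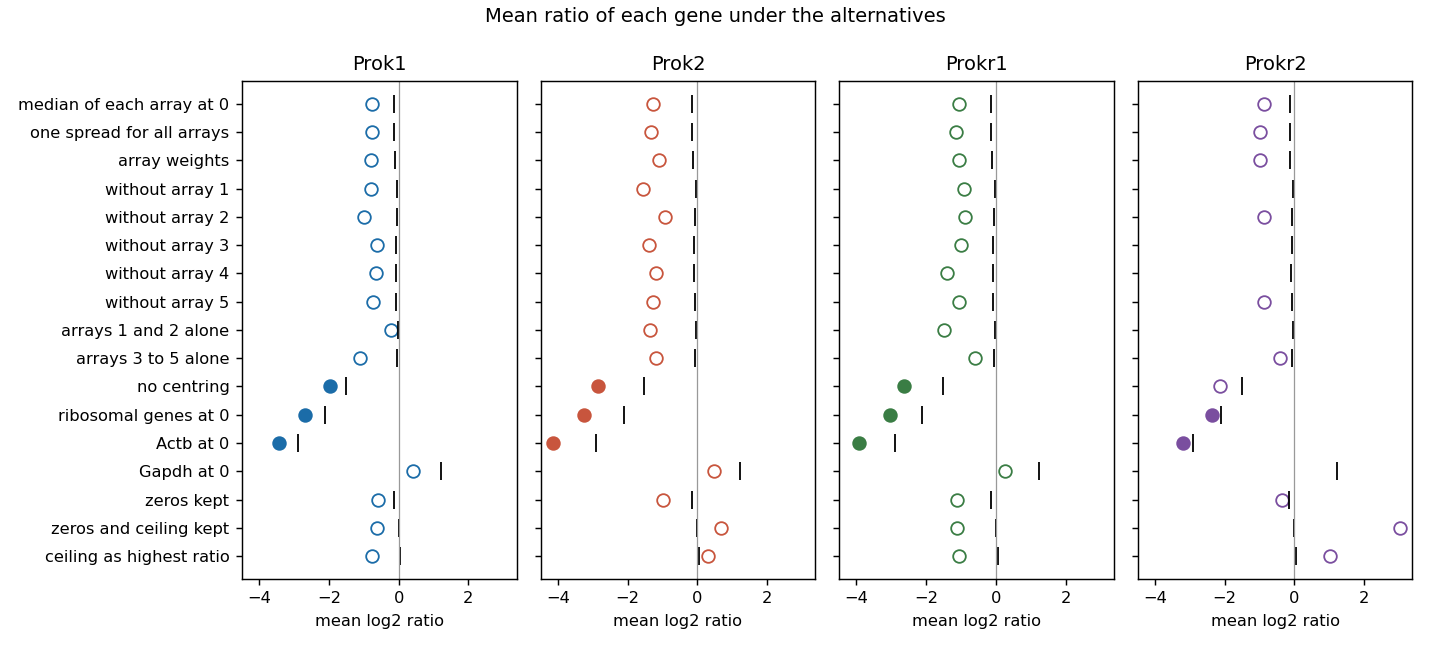
Mean log2 ratio (x axis) of each gene under the reference levels, array choices and treatments of zeros and ceiling values listed at left; filled points passed an adjusted p of 0.05 and the short black line is the median of all genes in the same fit. Points lie left of the line in most settings, and for Prok2 and Prokr2 they move right of it once ceiling values are kept.

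The 2 sets of arrays that stood apart were also fitted alone. On arrays 1 and 2 the means were -0.23 for Prok1, -1.35 for Prok2 and -1.5 for Prokr1, and Prokr2 could not be fitted. On arrays 3 to 5 they were -1.12, -1.19 and -0.61, with -0.41 for Prokr2, and all but that of Prok1 rest on 2 arrays. The means of Prok1, Prok2 and Prokr1 were below 0 in both sets, Prok1 lower on arrays 3 to 5 and Prokr1 lower on arrays 1 and 2. No gene of the family passed the test in either set. Leaving out each array in turn gave means from -0.99 to -0.63 for Prok1, from -1.56 to -0.93 for Prok2 and from -1.40 to -0.88 for Prokr1, and Prokr2 could be tested only without array 2 or 5, which hold no value of it. Of the 22 measured probe values, 17 equalled ratios of small whole numbers at 3 decimals. These were 4 of 9 on arrays 1 and 2 and 13 of 13 on arrays 3 to 5. Without such ratios no gene of the family was measured on 3 arrays.

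The genes whose ratios ran closest to each member over the same arrays were named by the root mean square difference. For Prok1 these were Clic3, a chloride intracellular channel protein, Jaml, an adhesion molecule of leukocytes, and Plaur, the urokinase receptor, at 0.23, 0.25 and 0.26 over 5 arrays, against a median of 1.50 over 8753 genes. For Prok2 they were Pfn4, a profilin, the transcription factor Klf11 and the olfactory receptor Olfr332 at 0.31, 0.34 and 0.37 over 4 arrays (median 1.75 over 4399 genes). For Prokr1 they were Marveld2, a tight junction protein, the olfactory receptor Olfr763 and Nqo1, a quinone reductase, at 0.17, 0.24 and 0.24 over 4 arrays (median 1.59). With so many candidates and so few arrays, these are descriptions with no test.

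Of 29 genes for proteins that carry the receptor signal, 24 were tested, 3 were higher with cocaine and none lower, with a median of 0.60. Over all features 5.89% were higher. Of the genes measured on all 5 arrays, as these 3 were, 12.7% were called in either direction and 0.776% were lower. The list was not limited to such genes, and so small a count is not read as a result about it. Gnai2, an inhibitory G protein alpha subunit, had centred ratios of 3.24, 1.34, 1.75, 1.22 and 1.27 on arrays 1 to 5 and averaged 1.77 ± 0.85 (SD, n = 5, adjusted p = 0.032 in limma). Akt1, a kinase of the survival pathway downstream of many receptors, averaged 1.59 ± 0.79 (n = 5, adjusted p = 0.047), and Prkcb, a calcium-dependent protein kinase C, averaged 1.50 ± 0.43 (n = 5, adjusted p = 0.046). All 3 were above the median on each array. Without array 1 the adjusted p-values of Gnai2, Akt1 and Prkcb were 0.13, 0.11 and 0.12, and with Actb at 0 the means were -0.89, -1.07 and -1.16. Each call was also lost without array 2, 3 or 4, at adjusted p-values from 0.051 to 0.14, and those of Akt1 and Prkcb without array 5. The other 5 genes of the list were not analysed here.

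Of the clock genes and known regulators of Prok2, 16 of 17 were tested and none passed in either direction, with a median of -0.30. Clock averaged -1.38 ± 0.92 (SD, n = 5, adjusted p = 0.087 in limma) and its paralog Npas2 1.53 ± 0.37 (n = 4, adjusted p = 0.075). Both encode partners of BMAL1, and Clock was below the array median on 5 of 5 arrays and Npas2 above it on 4 of 4. Of the genes of GnRH neuron and olfactory bulb development, the system in which Prok2 and Prokr2 are best known, 18 of 22 were tested and none passed, with a median of 0.019. The smallest p-values were those of Nsmf, which is linked to GnRH neuron migration, at 1.54 ± 1.16 (n = 5, adjusted p = 0.074), and of the growth factor Fgf8, at 1.03 ± 0.94 (n = 5, adjusted p = 0.20).

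Among other peptide-binding receptors of the class that includes Prokr1 and Prokr2, 15 of 17 were tested, and 1 was lower with cocaine, where 1.16% of all features and 1.65% of the genes measured on 3 arrays were lower. A single call says nothing about these receptors as a group. The gene was Npy1r, a receptor of neuropeptide Y, with centred ratios of -2.05, -2.63 and -3.31 on arrays 1, 3 and 4 and a mean of -2.66 ± 0.63 (SD, n = 3, adjusted p = 0.020 in limma). It was measured on the same 3 arrays as Prokr2. Its call was lost in the fit without array 2 (adjusted p = 0.061), although that array holds no value of it, and with zeros kept its mean was -1.37 (adjusted p = 0.40). The median of these receptors was -0.41.

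Prok1 shares actions on endothelium with the vascular endothelial growth factors, although not their structure. Of 12 genes of that family and its receptors and regulators, 11 were tested, and 1, Vegfb, was higher with cocaine at 2.14 ± 0.88 (SD, n = 5, adjusted p = 0.016 in limma). This count is close to the background of 5.89% higher over all features and 12.7% called in either direction among genes measured on 5 arrays. The centred ratios of Vegfb were 2.77, 3.34, 1.72, 1.24 and 1.63 on arrays 1 to 5. Without array 1 or 2 its adjusted p was 0.071 or 0.067, and with Actb at 0 its mean was -0.52. The Dickkopf proteins and colipase share the cysteine-rich fold of the prokineticins. All 5 were tested and none passed, with a median of -0.70. Dkk4 averaged -1.69 ± 0.98 (n = 4, adjusted p = 0.073) and Dkk1 -1.44 ± 0.98 (n = 5, adjusted p = 0.081), both inhibitors of Wnt signalling.

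Over the 6 lists, 89 of 102 genes were tested, 4 were higher and 1 lower, against 1063 higher and 152 lower among 17938 genes with a symbol. Markers of cell types were counted in the same way, in 11 lists that include 10 markers of pyramidal neurons, the cells of the dissected layer. Of the 69 markers, 65 were tested, 4 were higher with cocaine and none lower. Over all features 5.89% were higher and 1.16% lower, so this count is near the background. The 4 were the hypothalamic peptides Avp and Oxt, at 5.16 ± 1.37 (SD, n = 5, adjusted p = 6.4e-04 in limma) and 2.88 ± 2.32 (n = 4, adjusted p = 0.031), and the haemoglobin genes Hba-a1 and Hba-a2, both at 3.26 (n = 5, adjusted p = 0.012). No other member of their lists passed the test, and the hypothalamic list had a median of -0.43 with 4 of 6 means below 0, and the list of neutrophil and red cell markers a median of -0.38 with 5 of 8 below 0. Medians of the marker lists ran from -0.66 for endothelial to 1.1 for astrocyte markers, and their part in the prokineticin values was not tested.

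**Figure D4:**
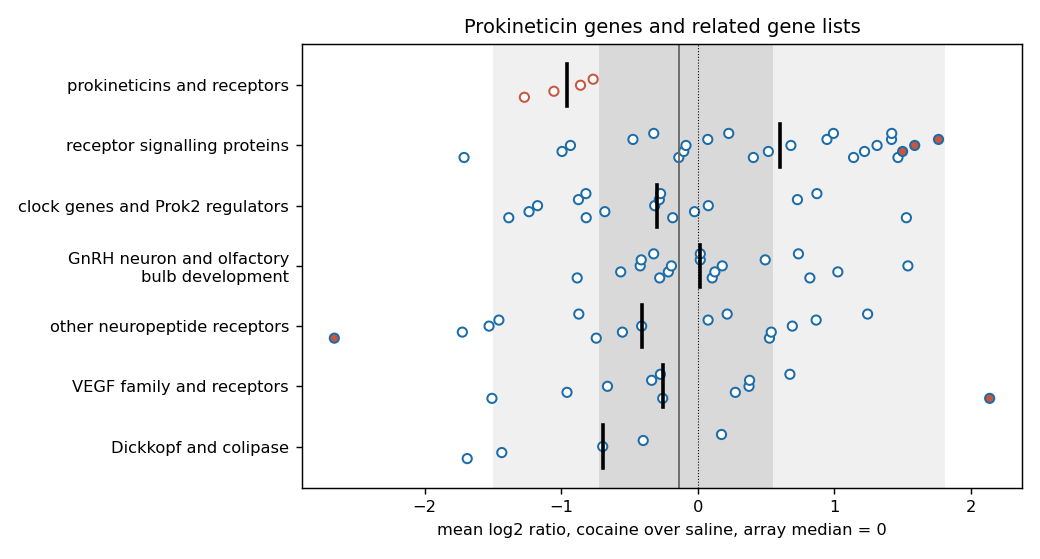
Mean centred log2 ratio (x axis) of each tested gene of the prokineticin family and of 6 related gene lists. Filled points passed an adjusted p of 0.05, thick bars are list medians, the thin grey line is the median of all genes tested (-0.14), and dark and light bands span the 25th to 75th and the 5th to 95th percentile of their means. All 4 prokineticin genes lie below 0 and inside the light band, between -1.27 and -0.77.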

How the data were processed

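The authors deposited 1 table of log2 ratios for 5 arrays with 2 dye channels. Image reading, background removal and any normalization of these arrays are not given in the sources used here, and the base of the logarithm was read from recurring ratios of small whole numbers. From this table, zeros and the ceiling of 16.61 were set to missing, each array was centred on its median, and values of several probes were averaged per symbol. Testing was limited to genes with values from 3 or more arrays. A limma model with the mean as its only term and moderated variances (limma 3.58.1, R 4.3.3), adjusted over all 28035 features after Benjamini and Hochberg at 0.05, was the main test. Single genes also had an exact sign-flip test. Features were named through the platform annotation, where 32042 had 1 symbol, 47 several and 12201 none. The members and lists were chosen with earlier results of these data known. Named genes were the 4 members, in each list up to 4 genes past the threshold or else the 2 with the smallest p (for marker lists, those past the threshold are printed), the 3 closest genes to each member measured on at least 4 arrays, and Actb and Gapdh. Alternatives covered reference level, scale, zeros and ceiling, small ratios, single probes, weights, variance model, filters and arrays left out. The number of arrays limits the precision.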

Additional observations from a re-analysis of the deposited data

How the results depend on the processing

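The number of arrays and the unknown scale between channels limit these results. Scaling to 1 spread, array weights, a robust variance prior, the filter at 2 arrays, single probes and each array left out, where they gave a value, changed the side of the threshold of no prokineticin gene and the sign of none. Under the filter at all 5 arrays only Prok1 was tested, with the same mean. Reference level and the ceiling value did. Uncentred, Prok1, Prok2 and Prokr1 averaged -1.98, -2.86 and -2.64 and passed the test. With ribosomal protein genes at 0, Prok1, Prok2, Prokr1 and Prokr2 averaged -2.69, -3.26, -3.04 and -2.35, and with Actb at 0 they averaged -3.42, -4.13, -3.92 and -3.20, all past the threshold. With Gapdh at 0 the means were 0.42, 0.49 and 0.28 for the first 3, none past the threshold, and Prokr2 could not be tested. With zeros kept, Prok1, Prok2, Prokr1 and Prokr2 averaged -0.60, -0.98, -1.12 and -0.36, none past the threshold. With zeros and ceiling kept, Prok2 and Prokr2 averaged 0.67 and 3.03, and with the ceiling at the highest ratio of array 5, an alternative chosen after seeing the data, 0.31 and 1.01. Leaving out each array gave -0.99 to -0.63 for Prok1, -1.56 to -0.93 for Prok2, -1.40 to -0.88 for Prokr1 and -0.86 for Prokr2 without array 2 or 5, and it could not be tested without array 1, 3 or 4. No member could be tested without small whole-number ratios.

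Over all genes the 1976 calls became 8174 uncentred (63 higher, 8111 lower), 19085 against ribosomal protein genes (42 higher), 24340 against Actb (10 higher), 62 with zeros kept, 39 with the ceiling at the highest ratio and 2993 with single probes. Against Gapdh they were 1940 higher and 2 lower, and without small whole-number ratios 2521 higher and 93 lower. The limma count was 0 with zeros and ceiling kept (3740 at an unadjusted p under 0.05) and 0 on arrays 3 to 5 alone (4000 unadjusted). Leaving out 1 array gave from 64 (array 1) to 1950 (array 5), with 76 without array 2.

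Among listed genes, uncentred means of Npas2 and Fgf8 were -0.058 and -0.19. Against ribosomal protein genes Gnai2, Prkcb, Akt1, Npas2, Nsmf and Fgf8 averaged -0.16, -0.42, -0.33, -0.46, -0.38 and -0.90, and against Actb -0.89, -1.16, -1.07, -1.34, -1.12 and -1.63, with Vegfb at -0.52. With zeros and ceiling kept Clock was 0.022 and Dkk4 1.69. Within arrays, Prok2 minus Prokr1 was 0.14 with zeros kept, 1.80 with the ceiling kept too and, leaving out each array, from -0.63 to 0.21, above 0 without array 4. Prok1 minus Prok2 was -1.28 with zeros and ceiling kept and from -0.11 to 0.83 leaving out each array. Prok1 minus Prokr1 was then from -0.16 to 0.82, both differences being below 0 without array 2. Single probes and small ratios were not run for these differences. The cause of these changes was not tested. Each array already holds both conditions, so the tests of ratios against 0 are paired by array. All 5 arrays belong to 1 group, and no further pairing was used.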
